A study of Mus musculus with 7 samples.

Results

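Histone genes were taken from the 16156 genes of the normalized table by symbol. The symbols cover linker histone H1, core histones H2A, H2B, H3 and H4 and their variants, older names included, and pseudogenes were left out. The rule matched 38 genes. Of these, 31 are replication-dependent genes of the histone clusters (4 H1, 6 H2A, 8 H2B, 5 H3 and 8 H4 genes) and 7 encode variants (H1f0, H2aj, H2ax, H2az1, H2az2, H3f3a and H3f3b). A gene was placed among the replication-dependent ones where its older symbol in GENCODE M21 begins with Hist. By the same symbols GENCODE M21 lists 82 protein-coding histone genes, 67 of them in the clusters, and those outside the table were not analysed here.

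RNA was sequenced from mouse CD8 T cells of 2 genotypes, ACLY KO (3 libraries) and WT (4 libraries), numbered here by replicate as in the labels. ACLY is ATP citrate lyase, which makes acetyl-CoA outside mitochondria for lipid synthesis and for acetylation of proteins, histones among them. The strain of all cells was labelled C57Bl/6. All cells were described as OT-I, with a transgenic receptor for an ovalbumin peptide, and carried a congenic mark. They were transferred to C57Bl/6 mice 1 day before infection of the mice with LmOVA, a Listeria monocytogenes that carries ovalbumin, and isolated again 6 days into the infection. How the knockout was made and in which cells was not stated in the sources used here. Nothing says that replicates stem from different animals, so p-values measure only the spread between these libraries, which may be technical. Total RNA was isolated on a column with DNase digestion. Whether the libraries were made after poly(A) selection or after removal of ribosomal RNA was also not stated.

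Replication-dependent histone genes supply the histones that package new DNA, and their mRNA rises in S phase. These mRNAs are known to end in a stem-loop bound by the protein SLBP instead of a poly(A) tail, so selection of poly(A) tails recovers them poorly, although some cluster genes can also make polyadenylated forms. Variant histone genes are transcribed through the cell cycle and make polyadenylated mRNA, and H2ax is known to make both forms.

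The library totals were 37473484 to 39692359 counts in KO and 45288353 to 75586011 counts in WT. Acly itself was at 262, 62.0 and 208 CPM (library-scaled counts) in the KO libraries, by replicate, against 393, 339, 414 and 276 CPM in WT replicates 1 to 4, so every KO library lay below every WT library, with KO replicate 1 close to WT replicate 4. Its log2 difference, KO minus WT, was -1.0 ± 0.44 (SE; adjusted p = 0.278 in edgeR's quasi-likelihood test), and which exons the knockout removes was not stated. The 8 CD8 T cell markers, all measured, summed to 3311 to 7886 CPM in KO and 7091 to 9688 CPM in WT. Markers of other cells were present. The summed ranges in KO and in WT were 645 to 10030 and 245 to 683 CPM for all 10 B cell markers. They were 64.5 to 1190 and 16.5 to 31.0 CPM for 9 of 10 macrophage markers, and 238 to 47280 and 1.48 to 475 CPM for all 7 red cell markers. They were 0.358 to 305 and 0 to 0.322 CPM for 2 of 6 neutrophil markers, and 5.26 to 50.2 and 11.4 to 14.0 CPM for 3 of 5 dendritic cell markers. KO replicate 1 had the highest sum of each of these 5 lists and the lowest CD8 T cell sum. Its macrophage sum was carried by Lyz2, at 725 CPM there, while the other 8 of the 9 measured macrophage markers were highest in KO replicate 3. Further, no measured marker was at 0 in every library of a genotype. WT replicate 4 stood apart by its cell cycle genes: 22 mitosis genes summed to 1153, 371 and 275 CPM in KO replicates 1 to 3, against 335, 300, 334 and 4581 CPM in WT replicates 1 to 4. Results that rest on KO replicate 1 or WT replicate 4 are given with and without them.

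The variant H2az1, one of the genes of H2A.Z, averaged 223 ± 41.4 CPM over 3 KO libraries and 522 ± 129 CPM over 4 WT libraries (SD), and H1f0, a linker histone of resting and differentiated cells, averaged 25.7 ± 6.95 CPM in KO and 44.7 ± 5.29 CPM in WT. For both genes no KO library reached the lowest WT library, as for 9.03% of all genes. The linker histone H1f2 lay above every WT library in every KO library, as 9.46% of all genes did. It was at 28.9 ± 14.5 CPM in KO against 13.2 ± 2.7 CPM in WT. The H2B gene H2bc4 averaged 10.3 ± 10.6 CPM in KO and 1.74 ± 1.90 CPM in WT, and its groups overlapped through WT replicate 4. Both differences rest in part on KO replicate 1. Without it the log2 difference went from 1.13 to 0.65 for H1f2 and from 2.57 to 1.30 for H2bc4. None of the 38 genes passed edgeR's quasi-likelihood test once p-values were adjusted over all genes (Benjamini-Hochberg), nor did any other gene (0%). DESeq2 called H2az1, H1f0, H1f2 and H2bc4, 2 of the 38 higher and 2 lower, against 6.81% of all genes higher and 3.43% lower. These 4 are among the 5 members with the smallest p. As a group the replication-dependent genes stood apart in 1 library of WT: they summed to 201 CPM in WT replicate 4, against 57.7 to 65.4 CPM in WT replicates 1 to 3.

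The stem-loop at the end of replication-dependent histone mRNA is the feature that sets these genes apart from the variants, so its forms are shown first. The 16-base histone stem-loop was searched in the sense strand of the longest GENCODE M21 transcript of each gene (GRCm38). It was found in 26 of the 31 replication-dependent genes and in 1 of the 7 variants, H2ax, and in 13 of the 16098 other genes of the table with a transcript (0.0808%). It was not found in the transcripts of H1f5, H2ac13, H2bc21, H2bc4 and H3c11, which says only that these letters are not in those transcripts. Among the 27 genes, 6 forms occur. The capitals mark the stem-loop and the lower case the 5 bases on each side.
H1f2: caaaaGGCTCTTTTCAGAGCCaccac
H2ac8: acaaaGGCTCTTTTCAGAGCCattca
H4c4: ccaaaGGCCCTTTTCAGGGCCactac
H3c6: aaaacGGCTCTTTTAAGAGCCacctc
H4c9: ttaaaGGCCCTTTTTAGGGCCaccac
H2ac20: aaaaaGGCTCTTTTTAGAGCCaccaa
H2ax: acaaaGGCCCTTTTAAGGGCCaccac
The form of H1f2 and H2ac8 is shared by 14 genes of the H1, H2A, H2B and H3 types. The form of H4c4 is shared by 6 genes, all of them H4, and the form of H4c9 by H4c14. The form of H3c6 is shared by H2bc3 and H3c7, and those of H2ac20 and H2ax occur in no other member. A base pair inside the stem splits the types. All 8 H4 genes and H2ax have a form that opens with GGCCC, and the other 18 genes have a form that opens with GGCTC.

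The position of the stem-loop in the annotation differs between genes. In 17 of the 26 replication-dependent genes the longest annotated transcript runs more than 100 bases past the stem-loop, as in H1f2 (840 bases), H4c4 (770 bases) and H2ac8 (151 bases). In the other 9 it ends within 100 bases, as in H3c1 (37 bases) and H4c17 (3 bases). The 17 genes with the longer annotated end had a median level of 2.25 CPM and the 9 with the shorter end 0.463 CPM, and 8 of the 9 lay under 1 CPM. Per length of exons the gap was small, with medians of 1.28 CPM per kilobase for the 17 genes and 1.08 CPM per kilobase for the 9. The 5 genes without the stem-loop in the transcript had a median of 5.34 CPM, or 2.60 CPM per kilobase.

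Promoters of 32 members were found in the RefSeq table (26 replication-dependent genes with 27 windows, and 6 variants), each window running from 250 bases before to 50 bases after the start (GRCm38.p6). The windows of H2bc8, H1f5 and H4c4 are shown, since these genes or their neighbours are among those described below as highest in WT replicate 4. The CCAAT box (CCAAT), the TATA box (TATAAA), the octamer bound by Oct-1 (ATTTGCAT) and a motif of H1 promoters (AAACACA) were searched on both strands. Matches are in capitals, and no motif lies within another.
H2bc8, chr13:23571150-23571449, plus strand: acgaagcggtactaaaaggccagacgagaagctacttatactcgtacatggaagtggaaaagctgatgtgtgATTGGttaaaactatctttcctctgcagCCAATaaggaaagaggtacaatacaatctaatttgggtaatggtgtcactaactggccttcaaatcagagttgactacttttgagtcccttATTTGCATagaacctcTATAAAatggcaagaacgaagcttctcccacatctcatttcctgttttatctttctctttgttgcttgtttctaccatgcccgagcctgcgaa
H1f5, chr13:21780576-21780875, minus strand: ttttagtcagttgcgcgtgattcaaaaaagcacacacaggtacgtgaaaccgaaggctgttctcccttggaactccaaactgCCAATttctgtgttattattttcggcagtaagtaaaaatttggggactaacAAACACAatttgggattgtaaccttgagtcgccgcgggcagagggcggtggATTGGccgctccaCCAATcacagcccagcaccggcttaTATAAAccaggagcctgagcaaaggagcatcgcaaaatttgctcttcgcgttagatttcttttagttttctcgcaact
H4c4, chr13:23581318-23581617, plus strand: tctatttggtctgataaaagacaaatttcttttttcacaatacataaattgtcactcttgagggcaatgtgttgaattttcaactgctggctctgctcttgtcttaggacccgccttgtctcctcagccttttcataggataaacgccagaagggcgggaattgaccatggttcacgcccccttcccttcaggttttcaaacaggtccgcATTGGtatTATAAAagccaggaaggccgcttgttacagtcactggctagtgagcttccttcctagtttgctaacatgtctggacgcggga
The first window is also the promoter of H2ac8, which starts on the opposite strand, with its own window at chr13:23571171-23571470. CCAAT was in 22 of the 27 replication-dependent windows (81.5%) and in 5 of the 6 variant windows (83.3%), against 37.4% of the 32851 windows in the table. Among the 7 H4 windows it was in 2. TATAAA was in 15 of 27 (55.6%), against 13.6% of all. ATTTGCAT was in 6 of 27 (22.2%), against 1.74% of all: 3 of the 6 H2A windows and 3 of the 7 H2B windows. AAACACA was in all 4 H1 windows and in 0 of the 23 other replication-dependent windows, against 7.18% of all. Of the 6 variant windows, 1 held TATAAA, 1 ATTTGCAT and 1 AAACACA (16.7% each). The replication-dependent windows are not independent. Those of H2ac8 and H2bc8 overlap, and their ATTTGCAT and TATAAA sites are the same, counted for each gene. The windows of H2ac11 and H2bc11 overlap as well and share their CCAAT sites. Those of H4c17 and H4c18 are near copies.

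In these counts the mean level of each variant gene was above that of each cluster gene per kilobase of annotated exons. Whether poly(A) tails were selected was not stated, and such selection would recover stem-loop mRNA poorly. In 17 cluster genes the annotated exons run more than 100 bases past the stem-loop, which lowers the value per kilobase if the mRNA ends there. The part of either in the gap between the classes was not tested. Set per kilobase of annotated exons, the mean over the 7 libraries was highest for H3f3b (454 CPM per kilobase), followed by H2az1 (222), H2az2 (88.8), H2ax (87.7), H3f3a (68.8), H2aj (50.2) and H1f0 (17.8). The median of the 7 variants was 87.7 CPM per kilobase, and that of the 31 replication-dependent genes was 1.28 CPM per kilobase. The highest replication-dependent genes on this scale were H1f2 (12.7), H4c4 (12.2), H2bu2 (11.3) and H1f5 (7.19), and the lowest was H1f3 (0.240), whose annotated exons span 7425 bases. Of the 31 replication-dependent genes 13 had a mean under 1 CPM and 3 a mean over 10 CPM. Levels of single cluster genes are uncertain because the genes are near copies. Of the 31, 29 share at least 1 stretch of 50 bases with the transcripts of another gene, 8 share over 50% of such stretches, and how reads with several matches were counted is not given in the sources used here.

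H2az1 and H2az2 encode the 2 forms of H2A.Z, a variant of H2A placed around promoters. H2az1 (chr3:137864487-137866922) stood at 203, 196 and 271 CPM in KO replicates 1 to 3, against 437, 638, 386 and 625 CPM in WT replicates 1 to 4. The groups did not overlap, and the WT libraries spread over a wider range than the KO libraries. Its log2 difference was -1.22 ± 0.24 (SE), with an adjusted p of 0.0693 in edgeR's quasi-likelihood test and of 0.000127 in DESeq2. It kept its sign in each alternative run, from -1.39 to -1.03. Of its transcript 33.2% of the 50-base stretches recur in other genes. H2az2 was at 116, 125 and 105 CPM in KO, against 133, 118, 127 and 291 CPM in WT. The groups overlapped and WT replicate 4 alone was high: the log2 difference was -0.53 ± 0.33 (SE; edgeR adjusted p = 0.440) with it and -0.12 without it. The counts of H2az1 made up 63.5%, 61.1% and 72.0% of the H2A.Z counts in KO replicates 1 to 3, against 76.6%, 84.4%, 75.3% and 68.3% in WT replicates 1 to 4. The lowest WT share was below the highest KO share, so the shares overlapped through WT replicate 4.

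H1f0 (chr15:79028450-79030504), the linker histone gene that lies outside the clusters, was at 33.3, 19.7 and 24.2 CPM in KO, against 49.0, 46.7, 37.0 and 46.1 CPM in WT. The highest KO library, replicate 1, lay just under the lowest WT library. This gave a log2 difference of -0.80 ± 0.22 (SE), with an adjusted p of 0.122 in edgeR's quasi-likelihood test and of 0.0149 in DESeq2. It was -0.99 without KO replicate 1 and WT replicate 4 together, and edgeR then called it (adjusted p = 0.0375). H2aj, an H2A variant known from senescent human cells, was at 87.2, 85.4 and 76.2 CPM in KO, against 103, 94.2, 89.1 and 108 CPM in WT. The groups did not overlap, but the difference was small, at -0.25 ± 0.12 (SE; edgeR adjusted p = 0.325).

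H2ax, the variant that is phosphorylated at DNA breaks, was at 142, 63.9 and 68.5 CPM in KO, against 68.3, 56.1, 71.6 and 379 CPM in WT. WT replicate 4 lay 5.80-fold above the mean of the other WT libraries, and KO replicate 1 was the highest KO library. The log2 difference was -0.65 ± 0.74 (SE; edgeR adjusted p = 0.697) and turned to 0.49 without WT replicate 4. H3f3a and H3f3b both encode H3.3, the H3 variant that is put into chromatin outside S phase. H3f3b was at 1257, 1333 and 1376 CPM in KO, against 1374, 1254, 1681 and 1189 CPM in WT, and H3f3a at 354, 215 and 211 CPM in KO, against 217, 252, 191 and 248 CPM in WT. Both pairs of groups overlapped, with log2 differences of -0.06 ± 0.17 for H3f3b and 0.19 ± 0.22 for H3f3a (SE; edgeR adjusted p = 0.898 and 0.689). Added up, the H3.3 genes averaged 1582 ± 31.9 CPM over the 3 KO libraries and 1601 ± 191 CPM over the 4 WT libraries (SD).

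**Figure D1:**
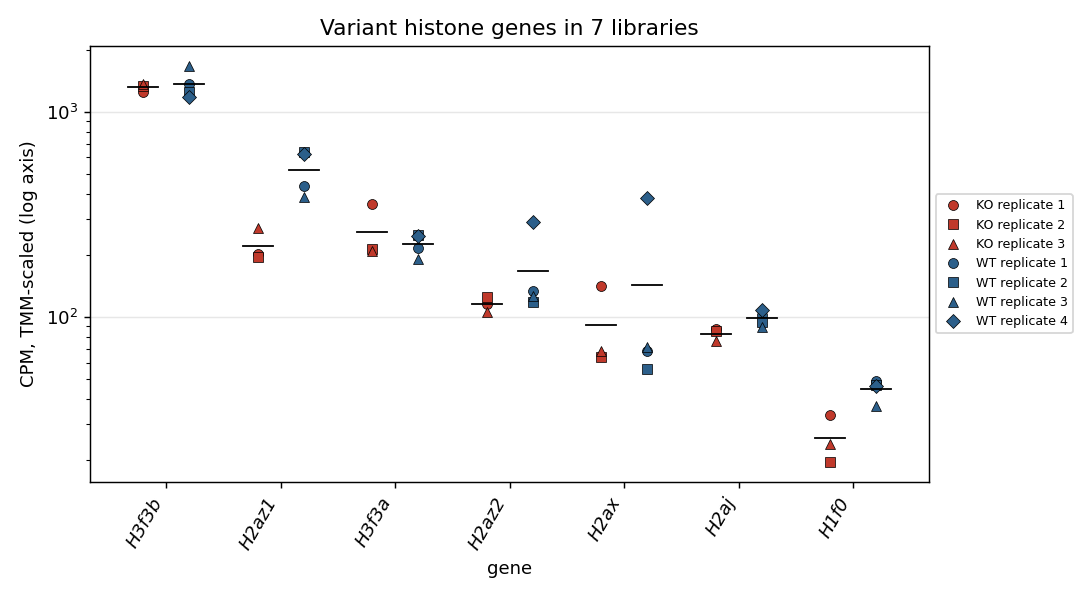
CPM (log axis) of the 7 variant histone genes in each library, KO in red left of WT in blue, with a mark shape for each replicate and a line at each group's mean. H2az1, H1f0 and H2aj have every KO library below every WT library, and WT replicate 4 is the high point of H2ax and H2az2.

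Among the linker histone genes of the cluster, H1f2 (H1.2, a major somatic linker histone; chr13:23738808-23740367) was at 45.3, 18.2 and 23 CPM in KO, against 12.2, 16.3, 14.2 and 9.95 CPM in WT. The lowest KO library lay just above the highest WT library, KO replicate 1 was the highest, and WT replicate 4 was the lowest of all. Between the groups the log2 difference was 1.13 ± 0.35 (SE), with an adjusted p of 0.150 in edgeR's quasi-likelihood test and of 0.0224 in DESeq2. It was 0.65 without KO replicate 1 and 0.55 without both that library and WT replicate 4. H1f4, another H1 gene, was at 7.54, 6.87 and 8.57 CPM in KO, against 6.04, 7.43, 7.62 and 28.0 CPM in WT. Only WT replicate 4 was apart from the rest. Without it the log2 difference of -0.68 ± 0.58 (SE; edgeR adjusted p = 0.587) became 0.13. Its exons overlap those of H2bc6, so its counts are uncertain. H1f5 and H1f3 were picked for their values and not by the rule for named genes. H1f5 was at 3.95, 2.51 and 0.537 CPM in KO, against 0.510, 0.583, 0.768 and 28.5 CPM in WT, so WT replicate 4 lay 45.9-fold above the mean of the other WT libraries. H1f3 was at 1.36, 1.28 and 0.717 CPM in KO, against 1.38, 1.73, 1.38 and 4.65 CPM in WT, with every KO library below every WT library by a narrow gap. Its log2 difference was -1.03 ± 0.59 (SE; edgeR adjusted p = 0.404) with WT replicate 4 and -0.42 without it.

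The 6 H2A genes shared 1 pattern: WT replicate 4 was the highest of the 7 libraries for each of them, against 20.8% of all genes. They share stretches of 50 bases with each other, so their counts may not be separate. H2ac8, which shares its promoter with H2bc8, was at 3.87, 1.79 and 0.768 CPM in KO, against 0.855, 0.628, 0.403 and 17.5 CPM in WT. WT replicate 4 lay 27.9-fold above the mean of the other WT libraries, which lay below KO replicates 1 and 2. The log2 difference was -1.18 ± 1.41 (SE; edgeR adjusted p = 0.712) and became 1.76 without WT replicate 4. H2ac6 was at 2.40, 2.21 and 3.63 CPM in KO, against 1.28, 1.10, 0.595 and 5.61 CPM in WT. Here the KO libraries lay above WT replicates 1 to 3 and below WT replicate 4, and the log2 difference was 0.36 ± 0.77 (SE; edgeR adjusted p = 0.850). It was 1.47 with WT replicate 4 left out and 1.57 with KO replicate 1 left out too (edgeR adjusted p = 0.134 and 0.104). H2ac11 and H2ac23, also picked for their values, were at 2.10 and 1.66 CPM in WT replicate 4 and at no more than 0.0576 and 0.0384 CPM, or 1 to 3 counts, in WT replicates 1 to 3. Of their 50-base stretches 78.9% and 93.5% recur in other genes, so their counts are uncertain. The 6 genes summed to 7.96, 5.61 and 5.32 CPM in KO, against 3.38, 2.78, 2.11 and 29.6 CPM in WT. Every KO sum lay between those of WT replicates 1 to 3 and that of WT replicate 4.

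Among the H2B genes KO replicate 1 was often the highest library. It was the highest of the 7 libraries for 5 of the 8 H2B genes and WT replicate 4 for the other 3, against 20.3% and 20.8% of all genes. H2bc4 (chr13:23684199-23692908) was at 22.4, 5.98 and 2.61 CPM in KO, against 0.759, 0.740, 0.864 and 4.59 CPM in WT. Every KO library lay above WT replicates 1 to 3, and WT replicate 4 lay between KO replicates 2 and 3. This amounts to a log2 difference of 2.57 ± 0.96 (SE), with an adjusted p of 0.211 in edgeR's quasi-likelihood test, 0.0407 in DESeq2 and 0.0151 in limma voom with quality weights. The estimate moved with both outlying libraries: it was 1.30 without KO replicate 1 (edgeR adjusted p = 0.456) and 3.70 without WT replicate 4 (0.0791). It was 2.46 with both left out, and edgeR then called it (adjusted p = 0.0353). Of its transcript 30.1% of the 50-base stretches recur in other genes. H2bc8, picked for its values, stood at 2.89, 1.26 and 0.947 CPM in KO, against 0.290, 0.224, 0.422 and 2.41 CPM in WT, and limma voom called it (adjusted p = 0.0499) while edgeR did not (adjusted p = 0.615). It had the same order of groups as H2bc4, with WT replicate 4 among the KO libraries.

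H2bc21 lies outside the main cluster, on chromosome 3. It was at 14.9, 6.33 and 3.91 CPM in KO, against 6.41, 7.07, 5.57 and 3.42 CPM in WT. KO replicate 1 was the highest library and WT replicate 4 the lowest. The log2 difference of 0.58 ± 0.50 (SE; edgeR adjusted p = 0.592) turned to -0.13 without KO replicate 1. H2bu2, on chromosome 11, differed little between the group means: it was at 9.46, 5.68 and 4.86 CPM in KO, against 8.25, 5.81, 5.99 and 8.44 CPM in WT, and the log2 difference was -0.10 ± 0.34 (SE; edgeR adjusted p = 0.911). The 8 H2B genes summed to 56.6, 20.3 and 14.4 CPM in KO, against 17.4, 15.6, 14.1 and 26.4 CPM in WT. KO replicate 1 held 3.27 times the mean of the other KO libraries, and this library had the highest level of each measured B cell, neutrophil, dendritic and red cell marker, and of 1 of 9 macrophage markers. The part of those cells in the H2B values was not tested, and in bulk RNA fewer cells of a type and less RNA per cell cannot be told apart.

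The 5 H3 genes were low, with a highest mean of 1.07 CPM. H3c6 was at 0.454, 0.861 and 1.07 CPM in KO, against 1.14, 0.628, 0.653 and 2.65 CPM in WT, and H3c7 at 0.615, 0.815 and 0.537 CPM in KO, against 0.772, 0.695, 0.595 and 1.12 CPM in WT. The groups overlapped in both, and WT replicate 4 was highest in both. The log2 differences were -0.67 ± 0.66 and -0.28 ± 0.45 for H3c6 and H3c7 (SE; edgeR adjusted p = 0.648 and 0.789), and -0.014 and -0.064 without WT replicate 4. H3c1, picked for its values, stood at 0.321, 0 and 0 CPM in KO, against 0.428, 0.314, 0.307 and 0.814 CPM in WT. A count of 0 allows up to 0.0756 and 0.0801 CPM in KO replicates 2 and 3, before scaling, and covers counting error only. Without KO replicate 1 and WT replicate 4 edgeR called H3c1 lower in KO (adjusted p = 0.0321), and 49.5% of its 50-base stretches recur in other genes.

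Of the 8 H4 genes, H4c4 was the highest, at 13.7, 11.1 and 5.65 CPM in KO, against 7.93, 7.34, 7.74 and 43.5 CPM in WT. WT replicate 4 lay 5.67-fold above the mean of the other WT libraries, which were close to each other. H4c4 had a log2 difference of -0.72 ± 0.74 (SE; edgeR adjusted p = 0.667), which became 0.40 without WT replicate 4. H4c9 was at 5.48, 2.24 and 2.94 CPM in KO, against 2.84, 2.54, 1.80 and 8.02 CPM in WT, with a log2 difference of -0.10 ± 0.61 (SE; edgeR adjusted p = 0.95) and overlapping groups, and it was 0.57 without WT replicate 4. H4c3 differed from both: it was at 2.49, 2.96 and 2.56 CPM in KO, against 4.25, 5.29, 3.01 and 5.15 CPM in WT. No KO library reached the lowest WT library, and WT replicate 4 was within the range of the other WT libraries. The log2 difference was -0.73 ± 0.34 (SE; edgeR adjusted p = 0.301).

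**Figure D2:**
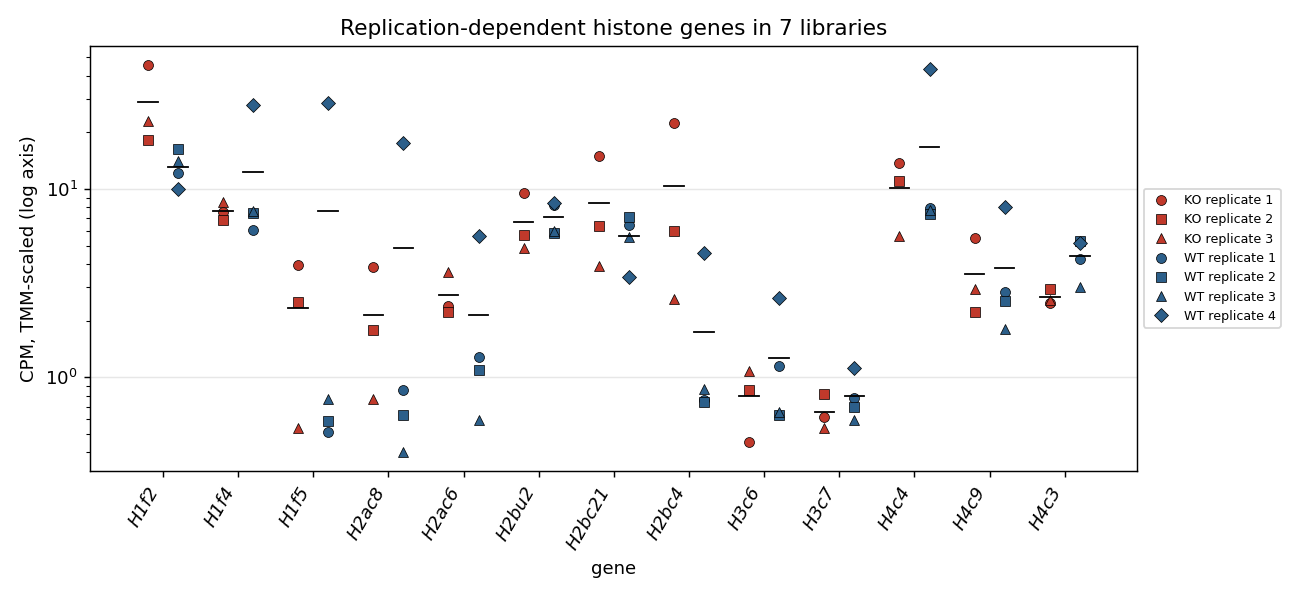
CPM (log axis) of 13 replication-dependent histone genes in each library, KO in red left of WT in blue, with a mark shape for each replicate and a line at each group's mean; H1f5 was added after its values were seen. WT replicate 4, the blue diamond, stands above the other WT libraries for H1f4, H1f5, H2ac8, H2ac6, H2bc4, H3c6, H4c4 and H4c9, and is the lowest library for H1f2 and H2bc21.

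Over all 31 replication-dependent genes the log2 difference was above 0 in 14 and below 0 in 17, with a median of -0.10, and over the 7 variants it was above 0 in 1 and below 0 in 6, with a median of -0.53. The median over all genes tested was 0.00. These medians rest on single libraries. Without KO replicate 1 the replication-dependent median was -0.53 and the variant median -0.54. Without WT replicate 4 the replication-dependent median was 0.54 (19 of 26 genes still tested above 0), the variant median -0.12 and the median of all genes 0.02. Without KO replicate 1 and WT replicate 4 together the medians were 0.14 and -0.11.

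By edgeR's quasi-likelihood test at an adjusted p under 0.05, 0 of the 38 histone genes were called either way, as were 0 of all 16156 genes (0%). At an unadjusted p under 0.05, 2 replication-dependent genes were higher (H1f2 and H2bc4) and 0 lower, and 0 variants were higher and 2 lower (H2az1 and H1f0), against 11% of all genes higher and 7.89% lower. DESeq2 called the same 4 genes, 2 higher and 2 lower, and gave no adjusted p for 3 histone genes, while it called 6.81% of all genes higher and 3.43% lower. Limma voom with quality weights called H2bc4 and H2bc8 higher and no histone gene lower, against 5.32% of all genes higher and 1.68% lower. Without KO replicate 1 and WT replicate 4, edgeR called H2bc4 higher and H3c1 and H1f0 lower, against 5.43% and 4.2% of all genes. All KO libraries lay above all WT libraries for 1 histone gene, H1f2, against 9.46% of all genes, and below for 5, H2az1, H1f0, H2aj, H4c3 and H1f3, against 9.03% of all genes.

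**Figure D3:**
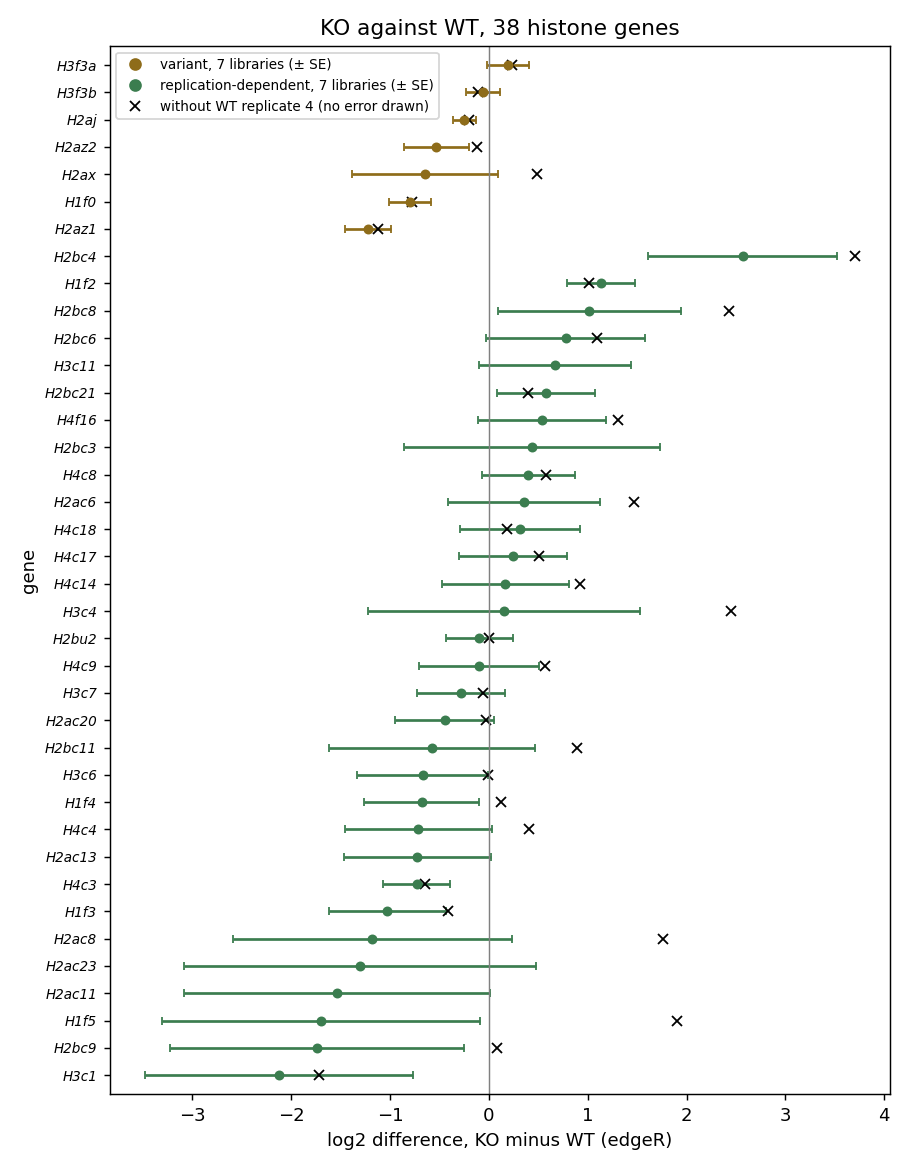
Log2 difference, KO minus WT, of each of the 38 histone genes, with variants above the replication-dependent genes; dots with bars are edgeR estimates with SE over 7 libraries, and crosses are the estimates without WT replicate 4 where the gene was still tested. For H2ac8, H1f5, H4c4, H1f4 and H2ax the cross lies above 0 and the dot below 0, while H2az1 and H1f0 stay near -1.22 and -0.80.

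WT replicate 4 stood apart from the other WT libraries for most cluster genes. It was the highest of the 7 libraries for 19 of the 31 replication-dependent genes (61.3%), against 20.8% of all genes, and the highest WT library for 27 of 31. Its ratio to the mean of WT replicates 1 to 3 had a median of 3.48 and ran from 0.539 for H2bc21 to 56.4 for H2ac23. H2ac23 had 98 counts there, and 93.5% of its 50-base stretches recur in other genes. The ratio was above 2 for 23 of the 31 genes (74.2%), against 12.9% of all genes, and below 1 for H1f2, H2bc21 and H4c18. Among the 7 variants the median ratio was 1.13, and it was above 2 for H2ax and H2az2. The stem-loop was found in the transcript of H2ax and not in that of H2az2. Among the cluster genes the median ratio was 3.48 for the 5 without it in the transcript. It was 3.77 for the 17 with the longer annotated end past it and 2.33 for the 9 with the shorter end. The part of the stem-loop in these ratios was not tested.

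**Figure D4:**
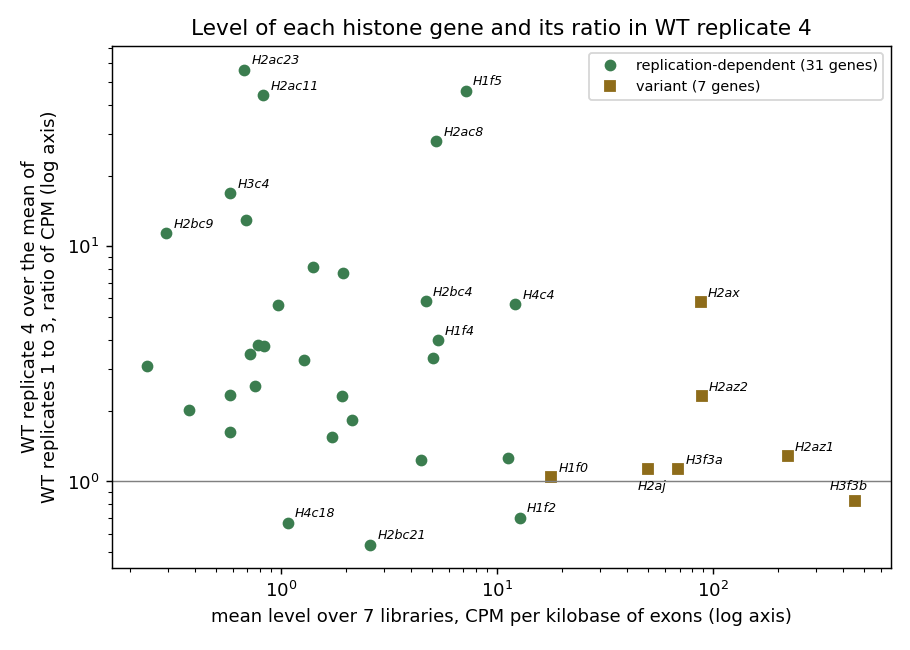
Ratio of CPM in WT replicate 4 to the mean of WT replicates 1 to 3 (log axis) against the mean level over 7 libraries in CPM per kilobase of exons (log axis), for 31 replication-dependent genes (circles) and 7 variants (squares). Most circles lie above the line at 1, up to H2ac23 at 56.4, and of the squares H2ax and H2az2 lie highest.

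Summed over the 31 genes, the replication-dependent histones were at 156, 79.0 and 72.4 CPM in KO, against 62.4, 65.4, 57.7 and 201 CPM in WT. These sums averaged 102 ± 46.3 CPM over the 3 KO libraries and 96.6 ± 69.5 CPM over the 4 WT libraries (SD), and every KO library lay above WT replicates 1 to 3 and below WT replicate 4. That order rests on H1f2: the other 30 genes summed to 110, 60.8 and 49.4 CPM in KO, against 50.2, 49.1, 43.6 and 191 CPM in WT, with KO replicate 3 below WT replicate 1. The ratio of WT replicate 4 to the mean of the other WT libraries differed by type, at 10.7 for H2A, 3.71 for H4, 3.41 for H3, 3.04 for H1 and 1.68 for H2B. The replication-dependent genes made up 6.63%, 3.73% and 3.28% of all histone counts in KO replicates 1 to 3, against 2.55%, 2.59%, 2.19% and 6.50% in WT replicates 1 to 4. The exact Clopper-Pearson 95% interval was 6.47% to 6.80% for KO replicate 1 and 6.39% to 6.62% for WT replicate 4, and it covers counting error only.

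The S phase list sets the histones beside genes of the same phase, and the mitosis list beside genes of a later phase. Summed CPM of 35 S phase genes, among them the MCM helicase and ribonucleotide reductase subunits, was 2096, 1470 and 1487 in KO, against 1709, 1692, 1812 and 5639 in WT. WT replicate 4 thus lay 3.24-fold above the mean of the other WT libraries for S phase genes, 14.2-fold for the 22 mitosis genes and 3.25-fold for the replication-dependent histones. KO replicate 1 was 1.42-fold, 3.57-fold and 2.06-fold above the mean of the other KO libraries for the same lists. In both lists no gene passed edgeR's test over the 7 libraries. At an unadjusted p under 0.05, 4 S phase genes were lower and none higher, beside 7.89% and 11% of all genes. DESeq2 called 2 S phase genes lower, beside 3.43% of all genes. It gave no adjusted p for 8 of the 35 S phase genes and 12 of the 22 mitosis genes. Of the S phase genes 33 of 35 had a log2 difference below 0 with a median of -0.77, and all 22 mitosis genes with a median of -1.50. Without WT replicate 4 the medians were 0.29 and 1.52, and without KO replicate 1 as well they were -0.15 (20 of 35 genes below 0) and 0.23 (9 of 22 below 0), so the sign of neither list held across these fits.

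Rpa2, a subunit of the protein that coats single-stranded DNA, was the S phase gene with the smallest p, at 83.6, 96.8 and 119 CPM in KO, against 170, 177, 181 and 189 CPM in WT (log2 -0.84 ± 0.14, SE; edgeR adjusted p = 0.0652). Pola1, the catalytic subunit of DNA polymerase alpha, was at 29.2, 19.3 and 25.3 CPM in KO, against 46.0, 41.7, 39.7 and 84.6 CPM in WT (log2 -1.11 ± 0.31, SE; edgeR adjusted p = 0.130). For both genes every KO library lay below every WT library, as for 5 of the 35 S phase genes and 9.03% of all genes. Both were named for the smallest p of their list, so that gap adds no support. Top2a, the topoisomerase of mitotic chromosomes, was at 113, 20.7 and 27.0 CPM in KO, against 49.2, 47.4, 46.3 and 528 CPM in WT. Cenpa, the centromere variant of H3, whose symbol the rule does not match, was at 86.5, 56.6 and 43.7 CPM in KO, against 57.1, 55.0, 64.8 and 295 CPM in WT. Both had WT replicate 4 as the highest library and KO replicate 1 as the highest of KO, and edgeR called neither over the 7 libraries. Without KO replicate 1 and WT replicate 4 edgeR called Rpa2, Pola1 and Top2a lower in KO (log2 -0.68, -0.91 and -0.98, adjusted p = 0.0367, 0.0375 and 0.0305). That fit called 4 of 35 S phase genes lower and 1 higher, and 1 of 22 mitosis genes lower and 0 higher. The shares over all genes were 4.2% lower and 5.43% higher. Without WT replicate 4 alone Top2a was at 0.16 and was not called (adjusted p = 0.910).

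**Figure D5:**
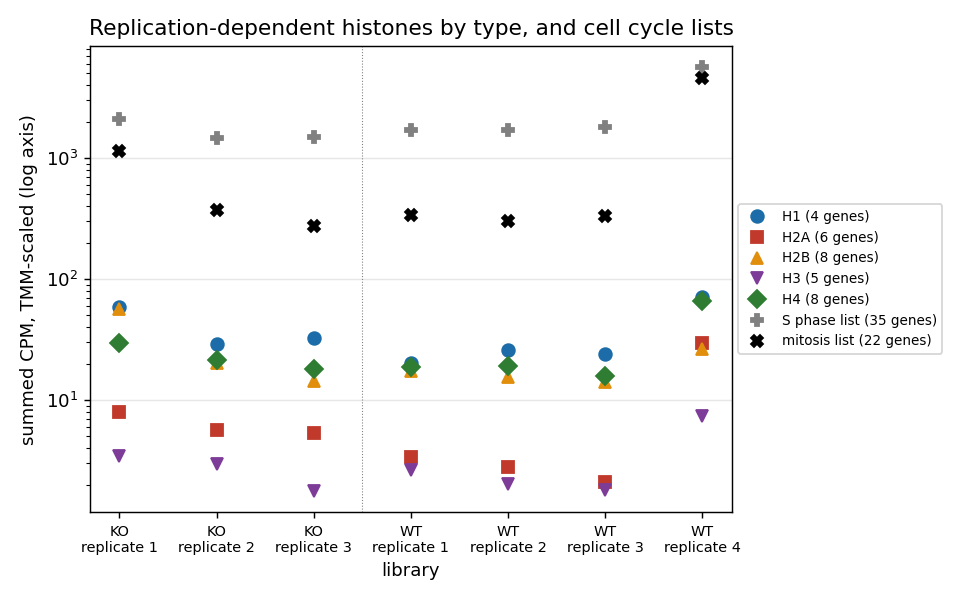
Summed CPM (log axis) per library of the replication-dependent genes of each histone type and of the S phase and mitosis lists, KO libraries left of WT libraries. All 7 sums have WT replicate 4 as the highest WT library, and H2B alone has KO replicate 1 above WT replicate 4.

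Genes that transcribe histone genes or process their mRNA were followed as a list of 25, all of them measured. Slbp and E2f1 stand in this list and in the S phase list, Mcm2 in the S phase and chaperone lists and Hjurp in the chaperone and mitosis lists. None passed edgeR's test, and 2 were higher and 3 lower at an unadjusted p under 0.05, where 11% and 7.89% of all genes were. DESeq2 called 1 higher and 2 lower, against 6.81% and 3.43% of all genes. Of the log2 differences 7 were above 0 and 18 below 0, with a median of -0.20. Without WT replicate 4 they were split 11 to 14 with a median of -0.085, and without KO replicate 1 as well 12 to 13 with a median of -0.012. Npat, the coactivator of histone loci in S phase, was at 33.5, 25.9 and 22.9 CPM in KO, against 46.8, 46.7, 50.1 and 40.0 CPM in WT (log2 -0.74 ± 0.18, SE; adjusted p = 0.0973 in edgeR and 0.00406 in DESeq2). Pou2f1, which encodes Oct-1, the factor that binds the octamer of H2B promoters, was at 45.6, 31.5 and 37.3 CPM in KO, against 16.9, 19.4, 17.5 and 27.1 CPM in WT (log2 0.92 ± 0.23, SE; edgeR adjusted p = 0.103). Neither pair of groups overlapped, but both genes were named for the smallest p of the list, so that gap adds no support. In the list all KO libraries lay above all WT libraries for 3 of 25 genes and below for 4, against 9.46% and 9.03% of all genes. Without KO replicate 1 and WT replicate 4 edgeR called both genes (adjusted p = 0.0224 for Npat and 0.0305 for Pou2f1). That fit called 1 gene of the list higher and 3 lower, against 5.43% and 4.2% of all genes. Slbp, the stem-loop binding protein, was at 147, 110 and 142 CPM in KO, against 170, 192, 183 and 304 CPM in WT. Its groups did not overlap either, and its log2 difference was -0.68 ± 0.23 (SE; edgeR adjusted p = 0.183).

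Histone chaperones, which carry histones to and from DNA, were all measured: 30 genes, 7 with log2 differences above 0 and 23 below 0, with a median of -0.18. That split rests on WT replicate 4: without it 15 were above 0 and 15 below 0 (median 0.0078), as without KO replicate 1 and WT replicate 4 together (median 0.022). The edgeR test passed none of them, and at an unadjusted p under 0.05 there were 1 higher and 4 lower, where 11% and 7.89% of all genes were. By DESeq2, 1 chaperone was called higher and none lower, against 6.81% and 3.43% of all genes. Ipo4, the importin that brings H3 and H4 into the nucleus, was at 14.6, 30.5 and 17.3 CPM in KO, against 10.7, 6.44, 12.2 and 11.9 CPM in WT (log2 1.01 ± 0.35, SE; edgeR adjusted p = 0.183). Cabin1, a subunit of the HIRA complex that deposits H3.3, was at 141, 128 and 138 CPM in KO, against 177, 155, 200 and 167 CPM in WT (log2 -0.36 ± 0.12, SE; edgeR adjusted p = 0.184). The groups did not overlap for either gene, with Ipo4 above and Cabin1 below in KO, but both were named for the smallest p. In this list all KO libraries lay above all WT libraries for 1 of 30 genes and below for 4, against 9.46% and 9.03% of all genes.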

How the data were processed

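Total RNA of 7 libraries was sequenced, 3 ACLY KO and 4 WT. The submitters' processing notes name Trim Galore 0.6.0, STAR 2.7.8, mm10 and DESeq2 (no version). Gene assignment, annotation, strand setting and filters were not stated. The authors deposited raw counts per gene, and a table of log2 CPM that the authors made from the same counts, which edgeR's TMM scaling with a prior count of 2 gave again within 4.99e-09. Values given as CPM were computed from the counts with TMM scaling. A count of 3 equals 0.0397 to 0.0801 CPM by library, before scaling.

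Genotypes were compared on the whole table of 16156 genes in R 4.3.3 with edgeR 4.0.16 (filterByExpr, which removed 0 genes; quasi-likelihood fit; genotype as the only term), Benjamini-Hochberg adjustment and a threshold of 0.05. SEs come from the same fit. The rule for named genes took the 2 highest genes of each cluster type, variants with a mean of at least 1 CPM, the 5 members with the smallest p and the 2 smallest p of each other list. Exon lengths, coordinates and stem-loops came from GENCODE M21 (16136 genes matched, all 38 histone genes among them). Exons of 12 histone genes overlap those of another gene. Alternatives were scaling by upper quartiles or by median of ratios, a minimum mean count of 10 or no filter, DESeq2 1.42.0 and limma 3.58.1 voom with quality weights. Others were a replicate block, each library left out, KO replicate 1 and WT replicate 4 left out together, and counts summed per histone type. KO has no replicate 4, so WT replicate 4 is alone in its block and does not inform the genotype difference of that fit. Scripts were tested on simulated data. The members, lists and alternatives were chosen with earlier results of these data known.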

Additional observations from a re-analysis of the deposited data

Results flagged for a closer look

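In the 4 WT libraries, 6 of 21 values checked had 1 library farther from the others than Dixon's 95% limit for 4 samples allows, on log2 CPM, and in each it was WT replicate 4 on the high side. Chance gives about 5% of such groups where they are independent. These 21 values come from the same 4 libraries, and the sum includes H1f4, H2bc4 and H4c4, so their count cannot be set against that share. The gap to the nearest library took 0.8488 of the range for H1f4 (28.0 CPM in WT replicate 4), 0.9174 for H2bc4 (4.59 CPM) and 0.9564 for H4c4 (43.5 CPM). It took 0.8719 for H2ax (379 CPM), 0.864 for H2az2 (291 CPM) and 0.8995 for the sum of the replication-dependent genes (201 CPM). The same library held 4581 CPM of mitosis genes, and their part in these values was not tested. The 3 KO libraries are too few for this check.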

How the results depend on the processing

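The 19 named histone genes were each fitted under 15 other settings, giving 285 values. Of these 247 kept direction and side of the threshold, 7 passed it, and 31 reversed; 9 genes had no reversal (H1f0, H1f2, H2ac6, H2aj, H2az1, H2az2, H2bc4, H3c7 and H4c3). The fit with no filter repeats the main fit, because filterByExpr removed 0 genes, so its 19 values agree by design. Since the main fit called none of these genes, a value could move far and still count as kept. For H2ac6 all 15 values counted as kept and ran from 0.045 to 1.57. The causes of the changes were not tested. Over all genes edgeR called 0, while DESeq2 called 1552, limma voom 1132, and edgeR without KO replicate 1 and WT replicate 4 called 1532. With 1 library left out the count was 0 to 189 (159 without KO replicate 1, 120 without KO replicate 2, 189 without KO replicate 3, 129 without WT replicate 4). The 31 replication-dependent genes had 2 calls by DESeq2, 2 by voom and 2 without both libraries, and the variants had 2 by DESeq2 and 1 without both. The replication-dependent median of -0.098 became 0.23 by voom, 0.49 with the replicate block, 0.14 without both libraries and -0.35 over sums per histone type, and ran from -0.53 (without KO replicate 1) to 0.54 (without WT replicate 4) with 1 library left out. The variants' median of -0.53 became -0.19 by voom, -0.13 with the replicate block and -0.11 without both libraries, and ran from -0.67 to -0.12 with 1 library left out (-0.12 without WT replicate 4).

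By voom the log2 difference was 0.23 for H1f4, 1.08 for H2ac8, 0.24 for H2ax, 0.23 for H4c4 and 0.21 for H4c9. With the replicate block, in which WT replicate 4 does not inform the genotype difference, it was 0.13, 1.55, 0.39, 0.31 and 0.49 for the same genes. Without both libraries it was 0.16, 1.04, 0.040, 0.14 and 0.13 for them, -0.29 for H2bc21, 0.28 for H3c6 and -0.031 for H3f3a. With 1 library left out it ran from -0.91 to 0.13 for H1f4, -1.92 to 1.76 for H2ac8, -1.12 to 0.49 for H2ax, -0.99 to 0.40 for H4c4 and -0.55 to 0.57 for H4c9. It ran from -0.13 to 0.92 for H2bc21, -0.43 to 0.087 for H2bu2, -0.094 to 0.33 for H3f3a and -0.11 to 0.055 for H3f3b, which was 0.0037 with upper-quartile scaling.

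Deviations of same-numbered KO and WT libraries from their group means had correlations over genes of -0.108, -0.051 and 0.137. Differently numbered libraries had -0.088 to 0.099. With 3 and 4 libraries, 1 of each apart from the rest, these values cannot show whether same-numbered libraries share an animal or a batch. The replicate block left the count of all genes called at 0. Counting error limits the 13 cluster genes under 1 CPM.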
